A study of Mus musculus with 2 samples.

Results

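Among splenic NK cells isolated by flow cytometry, a small number of barcodes carried transcripts of macrophages, dendritic cells, monocytes or neutrophils and none of the lymphocyte genes Ncr1, Cd79a and Cd3e. These selected cells were taken from barcodes with at least 500 detected genes and at most 10% of unique molecular identifiers (UMIs, counted molecules) from mitochondrial genes. A barcode was selected when at least 3 of 8 genes had a UMI (Plbd1, Aif1, Alox5ap, Mpeg1, C1qa, C1qb, Cst3 and Lyz2) and Ncr1, Cd79a and Cd3e had 0 UMIs. The rule chose 86 of 11607 kept barcodes, out of 11989 deposited. The levels of the 8 genes therefore describe the selection and are no finding.

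The series held 1 single-cell 3' library per group, control and dietary restriction (DR), both of mouse spleen. The labels call the groups control and DR and name NK cells as the cell type of each; genotype, strain, age, the length and degree of restriction, the number of mice per library and the sort gate were not given in the sources used here. With 1 library a group there was no replicate check, so no p-value is given, and cells are not replicates of a diet. Levels are the UMIs of a gene per 1e+06 UMIs (CPM), summed over cells unless a per-cell value is named, with 95% intervals that cover counting error only. A gene is called higher or lower when the ratio was at least 2 in either direction with an interval that left out 1, among genes with at least 30 UMIs. More cells of a type and more RNA per cell cannot be told apart in such sums.

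Macrophages of the splenic red pulp engulf aged red cells and recycle their iron; the heme oxygenase Hmox1 and the iron exporter Slc40a1 belong to this pathway, and the transcription factor Spic marks the lineage. Conventional dendritic cells present peptides on MHC class II and fall into a cross-presenting branch, marked by Xcr1 and Clec9a, and a branch that mainly primes CD4 T cells. Plasmacytoid dendritic cells carry Siglech, classical monocytes express Fn1, Chil3 and Ccr2, nonclassical monocytes express Ace and Nr4a1, and neutrophils are filled with the calcium-binding proteins S100a8 and S100a9. Dendritic cells and macrophages also signal to NK cells, presenting interleukin-15 on its receptor chain and secreting interleukin-18.

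The control library contributed 19 selected cells, 0.346% of its 5487 kept barcodes (Clopper-Pearson interval 0.209% to 0.540%). The DR library contributed 67 of 6120, or 1.09% (0.849% to 1.39%). The sort can set these shares. The libraries also differed in depth of the selected cells: the control cells had a median of 1126 UMIs (752 to 2215) and the DR cells a median of 3794 (827 to 37515). Their sums were 23211 and 512539 UMIs, so 3 UMIs corresponded to 129 CPM in the control sum and 5.85 CPM in the DR sum. The whole libraries were alike in total, at 44526828 and 42134212 UMIs, with medians of 7151.5 and 5782 UMIs a barcode. The libraries shared 13 barcode sequences, and 0 of these were selected cells.

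At the edge of the rule, 18 selected cells had exactly 3 of the 8 genes, whereas 9 barcodes with 2 of them and no excluding UMI stayed outside. Another 94 kept barcodes had 3 or more of the genes but also an excluding UMI, with Ncr1 in 61, Cd79a in 44 and Cd3e in 2. These excluded barcodes had a median of 11384.5 UMIs.

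Clustering of the selected cells alone gave 5 clusters, and the label of macrophage and dendritic-like cells covered only some of them. Cluster 1 was red pulp macrophage-like (9 control and 15 DR cells), cluster 2 was conventional dendritic cell-like (6 and 15), and cluster 3 was monocyte-like (2 and 17). Cluster 4 (2 and 12) mixed plasmacytoid and cross-presenting dendritic markers and is named here only by its leading gene, Siglech. Cluster 5 was neutrophil-like (0 and 8). Names rest on marker lists; the genes that define a cluster were used to make it and are given as description. At resolutions of 0.5 and 1.2 in place of 0.8 there were 4 and 6 clusters: clusters 2 and 4 largely joined at the lower setting, and 4 low-count cells left cluster 3 at the higher one.

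**Figure D1:**
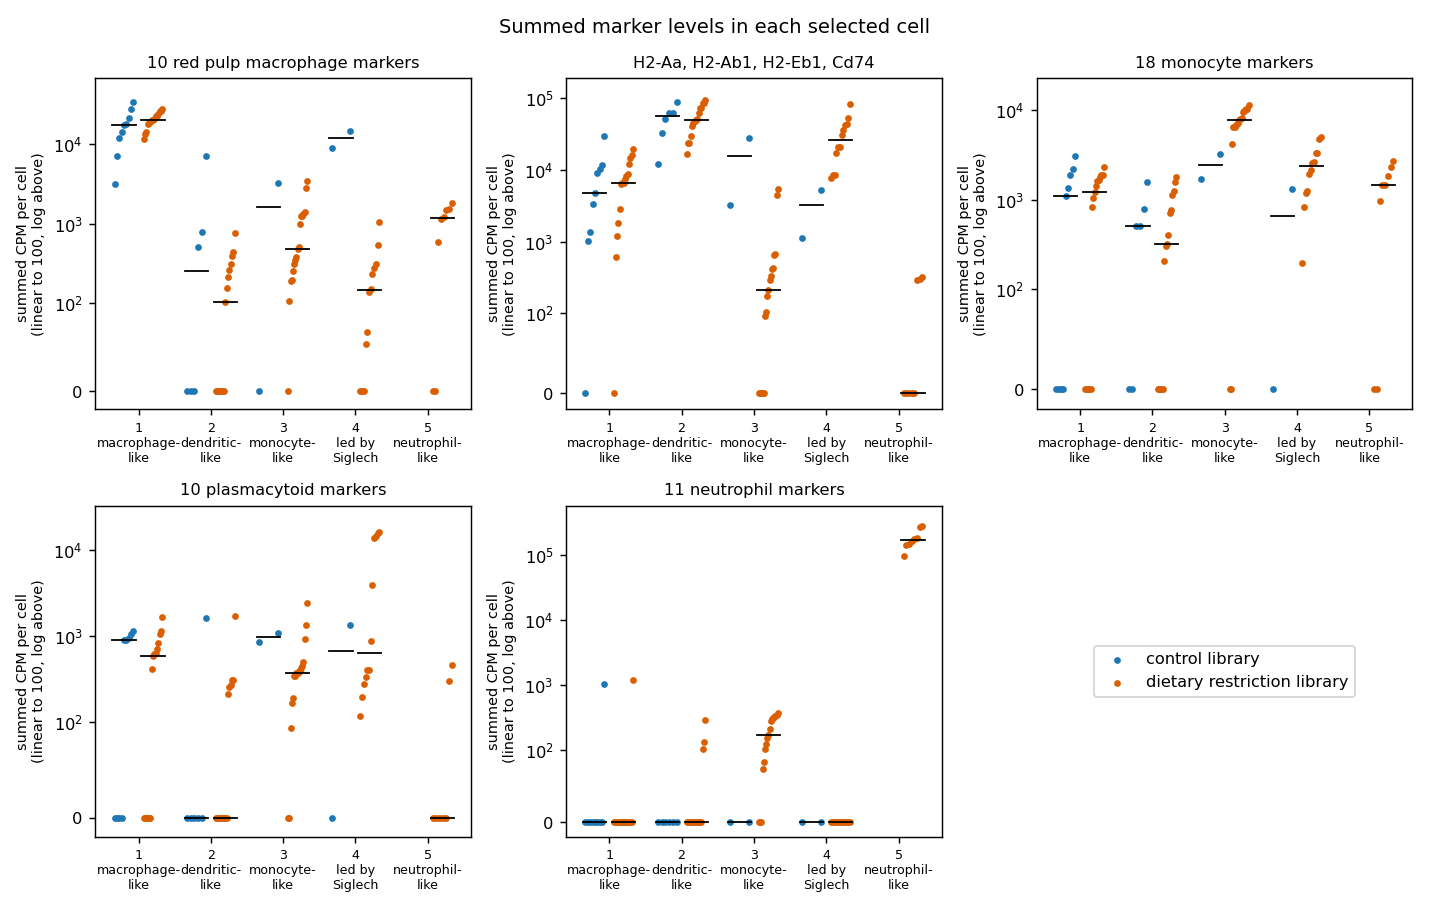
Summed level (CPM per cell, linear to 100 and logarithmic above) of 10 red pulp macrophage markers, 4 class II genes, 9 classical plus 9 nonclassical monocyte markers, 10 plasmacytoid markers and 11 neutrophil markers in each selected cell, by cluster. Points are cells, coloured by library, and bars are medians. The neutrophil markers reached 96316 to 284720 CPM in cluster 5, and the 2 control cells of cluster 4 stood with cluster 1 in their red pulp markers.

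The following stretches of 250 bases before the annotated start show 1 gene for each of 4 cell kinds found among the selected cells: C1qb for cluster 1, S100a9 for cluster 5, and Siglech and Xcr1 for the plasmacytoid and cross-presenting cells of cluster 4. They are from RefSeq on GRCm38.p6, 5′ to 3′ on the gene's strand. Capitals mark matches to motifs searched on both strands: GAGGAA, a core of PU.1 sites, TTGCNNAA, a form of the C/EBP site, and TGACTCA, the AP-1 site. No matches overlapped.
C1qb (chr4:136886201-136886450, minus strand): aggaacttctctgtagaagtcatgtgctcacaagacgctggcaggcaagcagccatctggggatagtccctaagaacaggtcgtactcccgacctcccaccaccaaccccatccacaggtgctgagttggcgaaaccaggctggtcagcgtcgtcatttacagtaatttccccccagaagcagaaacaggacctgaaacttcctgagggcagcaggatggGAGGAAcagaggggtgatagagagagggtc
S100a9 (chr3:90695722-90695971, minus strand): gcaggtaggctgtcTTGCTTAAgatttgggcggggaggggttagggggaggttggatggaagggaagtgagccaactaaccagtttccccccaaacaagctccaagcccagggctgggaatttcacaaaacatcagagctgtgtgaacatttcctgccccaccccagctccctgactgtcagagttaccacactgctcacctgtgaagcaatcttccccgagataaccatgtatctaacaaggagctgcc
Siglech (chr7:55767934-55768183, plus strand): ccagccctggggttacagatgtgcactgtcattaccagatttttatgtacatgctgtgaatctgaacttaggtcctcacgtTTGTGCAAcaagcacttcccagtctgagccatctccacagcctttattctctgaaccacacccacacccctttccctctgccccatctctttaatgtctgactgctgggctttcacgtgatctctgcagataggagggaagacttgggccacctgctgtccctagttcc
Xcr1 (chr9:123862030-123862279, minus strand): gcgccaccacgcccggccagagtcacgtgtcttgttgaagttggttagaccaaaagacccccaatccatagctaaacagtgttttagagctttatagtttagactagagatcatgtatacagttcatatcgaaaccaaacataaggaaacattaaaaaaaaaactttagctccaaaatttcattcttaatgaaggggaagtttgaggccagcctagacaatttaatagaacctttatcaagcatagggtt
The C1qb stretch held GAGGAA once, at -30 from the start, and the S100a9 and Siglech stretches held TTGCNNAA once each, at -236 and -169 (in Siglech on the reverse strand). Of 32851 RefSeq promoter stretches of the same length, 23.3% held GAGGAA, 9.56% TTGCNNAA and 4.46% TGACTCA, so the matches are a description of these letters only.

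In cluster 1, each of the 24 cells carried at least 3 of 10 red pulp markers, with a median of 7. Leading genes were the adhesion molecule Vcam1 (3205 CPM), the ficolin Fcna (1777 CPM), the 3 chains of complement C1q (C1qa, C1qb and C1qc), the integrin Itgad, Hmox1 (4855 CPM), the scavenger-related protein Cd5l, and Slc40a1 (3110 CPM). The genes C1qa, C1qc and C1qb lie side by side on mouse chromosome 4 (GRCm38, minus strand): C1qb at 136880129 to 136886187, C1qc at 136889804 to 136893065 and C1qa at 136895917 to 136898803. All 3 were detected together in 19 of the 24 cells, and in 4 of the other selected cells, for 23 of 86 in all. Hmox1 and Slc40a1 were found together in 23 of the 24. Xcr1 and Clec9a had 0 UMIs in this cluster.

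These were shallow barcodes, with a median of 1200 UMIs (827 to 2414). They were 27.9% of the selected cells and held 5.88% of their UMIs. The macrophage receptor gene Csf1r had 69 UMIs in 17 of the 24 cells. The interleukin-18 gene Il18 was detected in 14 of the 24 cells, with 22 UMIs. A single control cell of the cluster stood at 202532 CPM in erythroid genes, mainly haemoglobin, and a single DR cell carried all 12 UMIs of the platelet gene Pf4. Marginal zone macrophage markers were nearly missing from the selected cells: 0 of 86 cells had 3 of the 6, and Cd209b and Siglec1 had 0 UMIs.

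In cluster 2, H2-Aa, H2-Eb1 and the invariant chain Cd74 were detected together in 21 of 21 cells. Per cell, H2-Aa ranged from 1587 to 18568 CPM around a median of 10377 CPM, and Cd74 from 6349 to 47170 CPM. Each cell had at least 3 of 10 conventional dendritic cell markers, although that list had no gene among the 10 leading ones, which were led by Dtx1, H2-Eb2 and H2-Oa. The chemokine gene Ccl5, a member of the NK list, was also among the 10. Of its 109 UMIs in the cluster, 43 were in 1 cell.

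The cluster held different dendritic cells. Xcr1 or Clec9a was detected in 6 cells (1 control and 5 DR), whose cystatin C gene Cst3 had a per-cell median of 25559 CPM (1125 to 37566). Another 5 cells, all DR, had the Notch pathway gene Dtx1 or the fatty acid receptor gene Ffar2, and their Cst3 was 536.6 to 1188 CPM. No cell had genes of both pairs, and 10 cells had neither, with Cst3 at 294.6 to 42453 CPM. The Cst3 ranges overlapped. Since Cst3 was among the genes clustered and selected on, the contrast is descriptive.

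Cluster 3 was led by the fibronectin gene Fn1, the chitinase-like Chil3, the chemokine Ccl9, the coagulation factor F13a1, the homeodomain protein Hopx and the peptidase Ace. The lysozyme gene Lyz2 was detected in 19 of 19 cells, at 6838 to 60170 CPM per cell (median 25922 CPM). In 8 cells Fn1 had 10 or more UMIs, in 7 cells Ace had 5 or more, and 0 cells met both limits, which were set after the values were seen. Across the cluster Ccr2, a chemokine receptor of classical monocytes, was detected in 11 cells with 125 UMIs, and Nr4a1, a transcription factor of nonclassical monocytes, in 12 cells with 42 UMIs.

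All 15 of these Fn1 or Ace cells were from the DR library. The 2 control cells of cluster 3 and 2 DR cells had none of Fn1, Chil3, F13a1 and Ace, had 931 to 1502 UMIs each, and made up the cluster that split off at the higher resolution. One of the 2 control cells held 12 C1qa, 13 C1qb and 71 Lyz2 UMIs, so its monocyte name is uncertain. The remaining 15 cells of the cluster had deeper coverage, and the median over all 19 was 11718 UMIs.

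**Figure D2:**
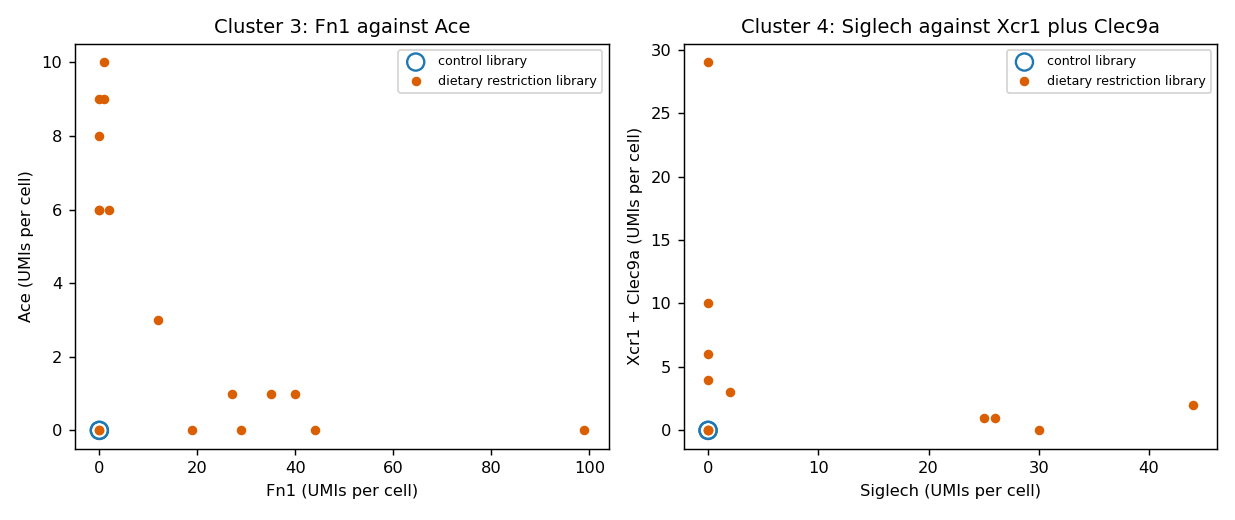
Left, UMIs per cell of Fn1 against Ace in the 19 cells of cluster 3; right, Siglech against the sum of Xcr1 and Clec9a in the 14 cells of cluster 4. Filled points are DR cells and open rings control cells, several of which overlap at 0; 8 cells had at least 10 Fn1 UMIs, 7 had at least 5 Ace UMIs, and none had both.

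Cluster 4 was led by Siglech (127 UMIs in 5 cells, all DR), Atp1b1, Cd209d, Cd8b1, Ly6d, P2ry14, Cox6a2 and a histone gene. In 4 of its cells Siglech, Cox6a2, Ly6d and the chemokine receptor Ccr9 were detected together, the pattern of plasmacytoid dendritic cells. In 3 other cells, with 25544 to 37515 UMIs each, Xcr1 was detected and Cst3 was 13008 to 20200 CPM. No cell had both Siglech and Xcr1, but Clec9a, the other cross-presenting marker, was detected at 1 to 3 UMIs in most of the Siglech cells. Dtx1 and Ffar2 were not confined to cluster 2. A DR cell of cluster 4 had 4 Xcr1, 2 Clec9a and 1 Ffar2 UMIs, and another had 4 Clec9a and 2 Ffar2 UMIs. A further DR cell had 8 Ffar2 and 1 Dtx1 UMIs and another 2 Dtx1 UMIs, both without Siglech, Xcr1 or Clec9a. The class II gene H2-Aa was present in 12 of 12 DR cells and 0 of 2 control cells. Of cell cycle genes, Mki67 was detected in 3 of its 14 cells (5 UMIs), Top2a in 4 and Stmn1 in 9, against 4, 6 and 10 of all 86 selected cells.

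The 2 control cells of cluster 4 differed from its DR cells in several markers. They had 752 and 879 UMIs, none of Siglech, Xcr1, Clec9a and H2-Aa, and 6 and 5 of the 10 red pulp markers. The 2 control cells did share Stmn1 with DR cells of the cluster. Mki67 or Stmn1 was detected in 2 of 2 control cells, with Mki67 in 0, and in 7 of 12 DR cells. The summed red pulp markers of the 2 control cells reached the range of cluster 1 in the plot of marker levels.

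Cluster 5 consisted of 8 DR cells with 2169 to 3390 UMIs. S100a9 was 48350.0 to 134848 CPM per cell and S100a8 33384.5 to 137413 CPM, and both were detected in 8 of 8. Retnlg, the chemokine receptor Cxcr2, the gelatinase Mmp9 and the inflammatory cytokine Il1b were also found in 8 of 8 cells. The granule genes of immature neutrophils Camp, Ngp and Ltf had 0 UMIs. Of the selection genes, Alox5ap, which feeds leukotriene synthesis, was in 8 of 8 cells, whereas C1qa, C1qb and Aif1 had 0 UMIs in the cluster. The G-CSF receptor gene Csf3r (2714 CPM) was in 8 of 8.

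**Figure D3:**
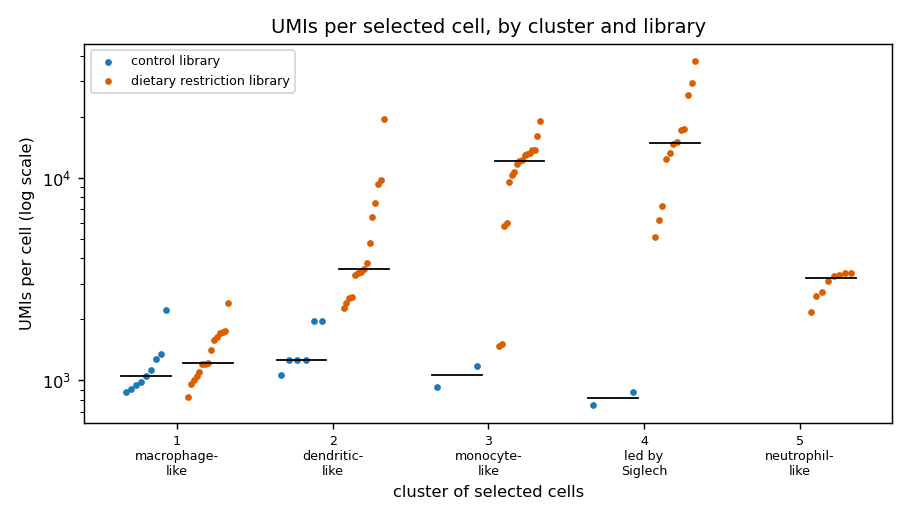
UMIs per selected cell (log axis) by cluster, with points as cells, coloured by library, and bars as medians. Cluster 1 was shallow in both libraries (medians of 1053 and 1221 UMIs), while the deepest cells were DR cells of clusters 2, 3 and 4.

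Against all other kept cells, 618 of 2713 genes were higher in the selected cells (22.8%) and 112 were lower (4.13%), or 26.9% either way. This contrast follows from the selection, so nothing is read from it. Ranked by the interval end nearest 1, the first 6 genes were S100a9 (3847 against 3.09 CPM), Retnlg, Stfa2l1 and S100a8, which lead the neutrophil-like cluster, and F10 and Fn1 (577 against 0.863 CPM), which lead the monocyte-like one. Among pathway lists, 12 of 12 described class II genes, 8 of 8 complement and scavenger genes, 9 of 10 heme and iron genes and 10 of 12 Fc and paired receptors were higher. Of the 11 described respiratory chain genes of the mitochondrial genome, 0 were called either way.

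Of 22 myeloid transcription factors, 19 were described, 14 were higher and 2 (Id2 and Klf2) were lower. Spi1, which encodes PU.1, was detected in each cluster, in 5 of 24, 15 of 21, 16 of 19, 11 of 14 and 8 of 8 cells in order of cluster number. The median depths of the clusters were 1200, 3305, 11718, 13884 and 3179 UMIs, so these detection counts do not rank the clusters. By level, other factors differed by cluster. Irf8, needed for cross-presenting dendritic cells, stood at 2002 CPM in cluster 4 and 279 CPM in cluster 2. The cluster 4 sum covers its Siglech cells as well as its Xcr1 cells, so it does not single out the cross-presenting ones. Cebpb was 1569 CPM in cluster 3 and 1921 CPM in cluster 5, but 14.8 CPM in cluster 4.

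Genes with which myeloid cells signal to NK cells were sparse. Il12a, Il12b, Raet1e and H60b had 0 UMIs in the selected cells. Il15 had 0 UMIs in the control cells and 5 UMIs in 3 DR cells, and its presenting receptor Il15ra 5 UMIs in 4 DR cells. Of the 17 genes of the list only 5 reached 30 UMIs.

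NK transcripts were present at low levels. The granzyme gene Gzma was detected in 32 of 86 selected cells at 80.3 CPM. In cells with a Cd79a UMI, a B cell gene, it was in 244 of 530 at 192 CPM, and in cells with an Ncr1 UMI at 11655 CPM. The share in selected cells (37.2%, median depth of 2901 UMIs) was below that of B cells (46.0%, 6596 UMIs) in a pool of shallower cells. By level the groups differed: Gzma was 418 CPM (200 to 768 CPM) in cluster 5, in 5 of 8 cells, and 467 CPM (152 to 1089 CPM) in the control cells of cluster 1, against 24.7 to 75.1 CPM in clusters 2 to 4. No expression by the selected cells is read from these counts. Of the selected cells, 16 had at least 3 of 12 NK genes, 2 had at least 3 B cell genes and 0 had 3 T cell genes.

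The counted makeup of the selected cells differed between the libraries, whose cells also differed in depth. By marker lists, 0 of 19 control cells had at least 3 of 9 classical monocyte, 9 nonclassical monocyte, 10 plasmacytoid or 11 neutrophil markers. Counts of 0 of 19 allow a share of up to 15.8% at 3 cells of the total, and the Clopper-Pearson interval ends at 17.6%. In the DR library these counts were 22, 20, 14 and 8 of 67 cells. A cell could count in several lists, so these are not separate cell kinds. The 22 classical cells were 12 of cluster 3 and 10 of cluster 4. The 20 nonclassical cells were 14 of cluster 3, 3 of cluster 2 and 3 of cluster 4. The 14 plasmacytoid cells were 9 of cluster 4, 3 of cluster 3 and 2 of cluster 2, and the 8 neutrophil cells were cluster 5. At least 3 red pulp markers were found in 12 of 19 control cells (63.2%, 38.4% to 83.7%) and 26 of 67 DR cells (38.8%, 27.1% to 51.5%). Per kept barcode these cells were 0.219% of 5487 in the control library (0.113% to 0.382%) and 0.425% of 6120 in the DR library (0.278% to 0.622%). The lower share among the selected DR cells was thus not a lower share of the library. These shares per kept barcode were not thinned and depend on depth. Over both libraries the cells with 3 red pulp markers were 24 of 24 in cluster 1 but also 2 of 21 in cluster 2. They were 9 of 19 in cluster 3, which had a median of 11718 UMIs, and 3 of 14 in cluster 4, so they are not all macrophage-like. When every cell was thinned to 700 UMIs, with 0 cells left out, 10 of 19 control and 15 of 67 DR cells had at least 3 red pulp markers. These shares were 52.6% (28.9% to 75.6%) and 22.4% (13.1% to 34.2%), with overlapping intervals. The DR cells with 3 monocyte, plasmacytoid or neutrophil markers were then 8 (classical), 3 (nonclassical), 4 and 8, against 0 control cells for each. As shares of 67 they were 11.9%, 4.48%, 5.97% and 11.9%, all within the control interval for 0 of 19, which ends at 17.6%.

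Pooled over all selected cells, 122 of 2713 genes were higher (4.5%) and 150 lower (5.53%), or 10% either way, in the DR library against the control library. Of these calls 3 higher (Lyz2, Alox5ap and Plbd1) and 3 lower (Aif1, C1qa and C1qb) were selection genes, for which the counts are a description. The 2 sums contained clusters in different proportions: cluster 1 held 46.2% of the control UMIs and 4.06% of the DR UMIs, and clusters 3 and 4 held 35.6% and 39.1% of the DR UMIs. S100a9 had 2061 UMIs in the DR cells, all in the 8 neutrophil-like cells, and 0 in the control cells, which makes it at least 31.1-fold higher against a floor of 3 UMIs in the control sum. S100a8, Retnlg, Ccl6 and Fn1 had 0 control UMIs as well and were at least 25.6-fold, 6.60-fold, 5.56-fold and 4.66-fold higher. None of these genes came from cluster 1 in quantity, where Ccl6 had 5 UMIs and the others 0.

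Leading genes of cluster 1 were among those lower in the pooled DR cells. Hmox1 was 3102 CPM in the control sum and 220 CPM in the DR sum, a log2 ratio of -3.81 (-4.25 to -3.37). Per cell its control values ran from 0 over a median of 2148 to 17762 CPM and its DR values from 0 over a median of 0 to 9674 CPM, so the cells overlapped. C1qc (-4.00), Spic (-3.46), Fcna (-3.39), Blvrb (-3.25) and Slc40a1 (-2.91) had log2 ratios of the same sign, as did Hebp1 (-4.72) and Clec4n (-4.30). The protease inhibitor gene Slpi, picked after its values were seen, was high in clusters 1 (3078 CPM) and 5 (3883 CPM) and was 1853 CPM in the control and 355 CPM in the DR sum. The selection genes C1qb (-4.08) and C1qa (-3.05) were lower too, which is given as description, since cells entered the sums through these counts.

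By list, 0 of 8 described complement and scavenger genes were higher and 6 lower, with a median log2 ratio of -2.64; 2 of the 6 were the selection genes C1qa and C1qb. Of 10 heme and iron genes 0 were higher and 7 lower (-2.18), including the ferritin chains Fth1 and Ftl1. Of 9 S100 and granule genes 7 were higher and 0 lower (2.03), and 3 of 3 cytokine and chemokine genes were higher, namely Ccl6, Ccl9 and Il1b. The median over all described genes was -0.17, each with control zeros set to the floor. Class II genes stood near even, with 1 of 12 higher, 1 lower and a median of 0.26. When clusters 1 and 2, the only ones with at least 5 cells in each library, were weighted equally, the complement list had a median of 0.062 and the heme and iron list -0.37.

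Within cluster 1 the comparison could be made between 9 control cells (10715 UMIs) and 15 DR cells (20800 UMIs) of similar depth. Of 175 genes, 14 were higher (8%) and 8 lower (4.57%), or 12.6% either way, in the DR cells. Of the 14, 1 was the selection gene C1qa. Of the 8 lower genes 4 were haemoglobin genes, whose UMIs were almost all in 1 control cell.

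C1qc, the C1q chain that was not used in the selection, was 3453 and 3365 CPM, with a log2 ratio of -0.04 (-0.63 to 0.58), and was not called. The chains used in the selection are given as description: C1qb was 4573 and 4087 CPM, and C1qa 2520 and 5625 CPM, with log2 ratios of -0.16 and 1.16. C1qa per cell was 0 to 5516 CPM in control and 835 to 14742 CPM in DR cells, so the cells overlapped. Its ratio was 0.57 when the 16 control and 23 DR barcodes that met the gene rule with C1qa or C1qb but had under 500 genes were added, a choice made after seeing the data.

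Receptors and adhesion molecules were among the genes called higher in the DR cells of cluster 1. Vcam1 had 16 UMIs in 7 of 9 control cells and 85 UMIs in 13 of 15 DR cells, or 1493 and 4087 CPM (log2 ratio 1.45, 0.67 to 2.32). The apoptotic cell receptor Axl had 3 UMIs in 3 control cells and 31 in 12 DR cells (2.41, 0.73 to 4.77). The mannose receptor Mrc1 had 3 and 28 UMIs (2.27, 0.57 to 4.63). These rest on few control UMIs, and their intervals are wide.

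Trf, which encodes the iron carrier transferrin, had 7 and 47 UMIs (log2 ratio 1.79). The protease inhibitor-like gene Ctla2a had 0 control and 34 DR UMIs, at least 5.84-fold higher against the floor. Of the heme and iron list, 1 of 7 described genes was called higher, Trf, and 0 lower. Hmox1 was 5973 CPM in the control and 4279 CPM in the DR cells (-0.48, -0.96 to 0.01), and Slc40a1 2427 and 3462 CPM (0.51, -0.15 to 1.22). Neither was called.

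Lower in the DR cells of cluster 1 were Hebp1, a heme-binding protein gene (2053 and 769 CPM, log2 ratio -1.42), the chromatin protein gene Hmgb1 (-1.47), the lectin gene Lgals3 (-1.19) and the chaperone gene Hspa8 (-1.13). Without the haemoglobin-rich control cell, an alternative chosen after seeing the data, 10 genes were higher and 7 lower.

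**Figure D4:**
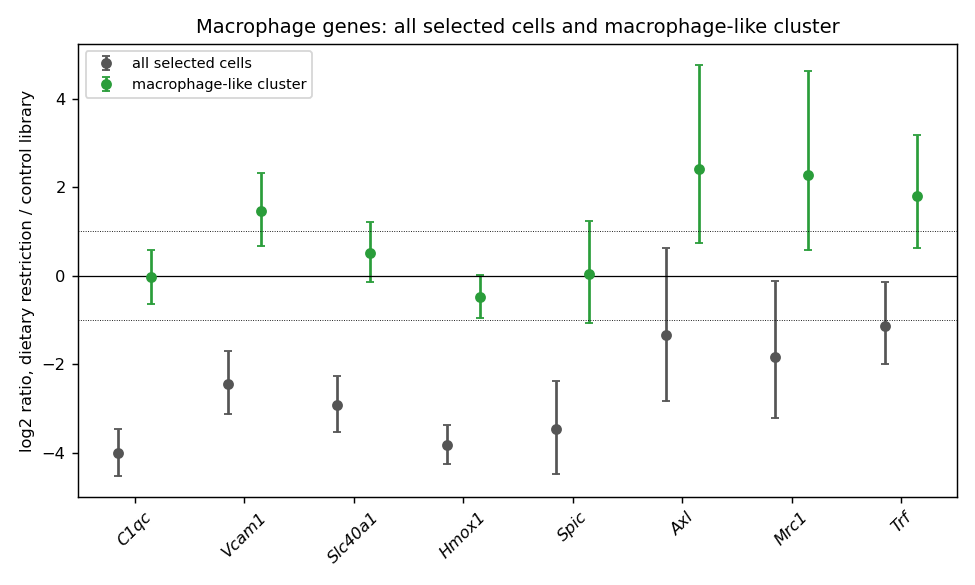
log2 ratio of DR over control library for 8 macrophage genes, none of them used in the selection, summed over all selected cells (grey) and within cluster 1 (green), with 95% counting intervals; dotted lines mark a ratio of 2 either way. Hmox1 stood at -3.81 in the pooled cells and at -0.48 within cluster 1, and Vcam1 at -2.45 and 1.45.

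Of mitochondrially encoded respiratory chain genes, 5 of 8 described in cluster 1 were called higher in the DR cells and 0 lower (median log2 ratio 1.11), with mt-Co1 at 2333 CPM in the control and 6971 CPM in the DR cells. The other 3, mt-Nd2 (0.96), mt-Co2 (0.85) and mt-Cytb (0.55), were not called. Of all 175 genes described in cluster 1, 8% were called higher. In cluster 2, 3 of 8 described respiratory chain genes were called higher and 0 lower (median log2 ratio 0.854), against 3.93% of 356 genes called higher. Over all selected cells these counts were 4 of 11 higher and 0 lower (1.004), against 4.5% of 2713 genes called higher. The median mitochondrial share of UMIs was 0.670% in the control and 2.86% in the DR cells of cluster 1. In cluster 2 these medians were 0.357% and 1.58%. The difference between the libraries was thus not confined to cluster 1, and its cause was not tested. Computed on totals without ribosomal and mitochondrial genes, the counts within cluster 1 were again 14 higher and 8 lower, and the C1qa ratio was 1.18.

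Within cluster 2, 14 of 356 genes were higher (3.93%) and 12 lower (3.37%), or 7.3% either way, in the DR cells (84480 UMIs) than in the 6 control cells (8754 UMIs). The control cells had a median of 1259 UMIs and at most 1964. The 5 Dtx1 or Ffar2 cells were in the DR library only and had 6419 to 19545 UMIs each. The cells compared were thus unlike in depth, and whether the control library lacked such cells cannot be told. Of 8 described class II genes 0 were called, with H2-Aa at 9024 and 10570.5 CPM and Cd74 at 24332 and 27202 CPM. S100a4 (log2 ratio 1.01) and Cox8a (228 and 911 CPM) were called higher, and Lgals3 (-1.62), the nuclease gene Dnase1l3 (-1.39) and the lysosomal gene Psap (-1.17) lower. Lgals3 was thus called lower in both clusters.

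The gene with the largest ratio in cluster 2 was Malat1, a long noncoding RNA retained in the nucleus. Its 708 UMIs in the DR cells of cluster 2 were uneven. The 5 Dtx1 or Ffar2 cells held 32 to 302 UMIs each, and every other DR cell of the cluster 0 or 1. The per-cell median of the DR cells of cluster 2 was 293 CPM. Malat1 also set the selected cells apart more widely. Malat1 had 7 UMIs in the 19 control cells, 302 CPM (121 to 621 CPM), against 30150 CPM in the other kept control cells. It was 11669 CPM in the DR selected cells and 28848 CPM in the other kept DR cells. The further nuclear RNAs Neat1, Xist and Kcnq1ot1 had 0 UMIs in the control selected cells, where the interval ends at 159 CPM, and 238, 673 and 201 CPM in the other control cells. In the DR selected cells Neat1 was 248 CPM against 229 CPM in the other DR cells, Xist 624 against 922 CPM and Kcnq1ot1 54.6 against 218 CPM. Neat1 was thus not low in the DR sum, but its clusters differed. It was 48.1 CPM (1.22 to 268) in cluster 1, 71.0 CPM (26.1 to 155) in cluster 2 and 105 CPM (64.8 to 160) in cluster 4. In clusters 3 and 5 it was 378 and 1253 CPM. The cytoplasmic messenger of Actb did not share this pattern, at 14347 and 10828 CPM in the control and 11258 and 9818 CPM in the DR library. These genes were chosen after values were seen.

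By cluster, Malat1 in DR cells was 913 CPM in cluster 1, 8381 CPM in cluster 2, 11360 CPM in cluster 3, 12549 CPM in cluster 4 and 27602 CPM in cluster 5. With a limit of 5000 CPM per cell, also set after seeing the data, 19 of 19 control and 33 of 67 DR selected cells lay below it. In cluster 1 these were 23 of 24 cells, at 827 to 2414 UMIs each, and in cluster 5, at 2169 to 3390 UMIs, 0 of 8. Of the other kept cells with under 2500 UMIs, 42.0% of 283 control and 20.8% of 192 DR cells lay below the limit, and of all other kept cells 5.54% and 4.43%. Among the selected cells, low Malat1 thus went with the control library and with cluster 1, and 11 of the 15 DR cells of cluster 2 were also below the limit. The 19 control selected cells had only 752 to 2215 UMIs each, so library and low depth cannot be told apart there. The relation of Malat1 to depth was not uniform. Over all DR selected cells, those below the limit had a median of 2412 UMIs and those above it 10030. In cluster 2 these DR medians were 3395 and 8612. In cluster 3 the 5 DR cells below the limit had a median of 12007 UMIs and the 12 above it 11964. In cluster 4 the 3 below had 14988 and the 9 above 14594. Its part in the library differences above was not tested.

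**Figure D5:**
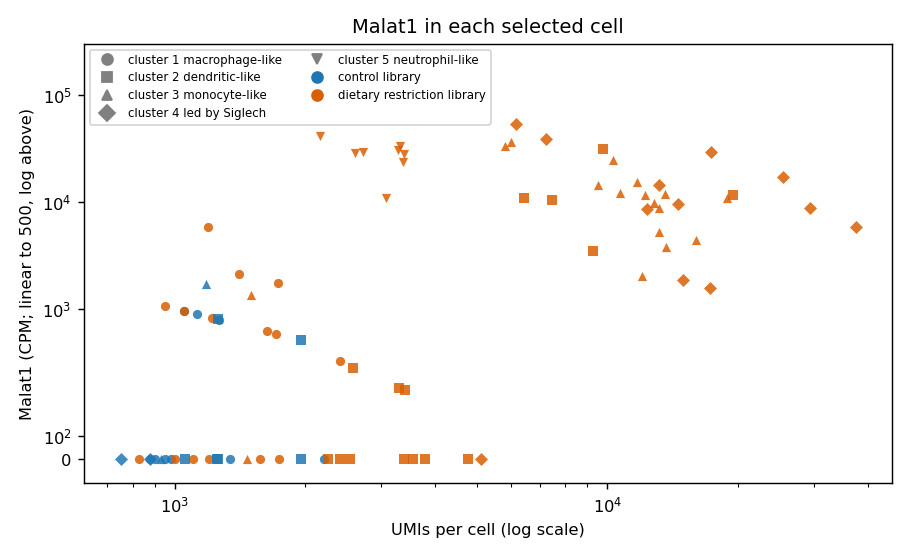
Malat1 level of each selected cell (CPM, linear to 500 and logarithmic above) against its UMIs (log axis), with symbols for clusters and colours for libraries. The 19 control cells lie between 0 and 1695 CPM, and the 8 neutrophil-like cells between 10739 and 41033 CPM.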

How the data were processed

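UMI counts per gene and barcode were deposited by the authors for 1 control and 1 DR library, 10x Chromium 3' chemistry per the labels' protocols. Cell Ranger 2.1.1 and mm10 are named per the submitters' processing notes, whereas the deposited matrix headers name Cell Ranger 5.0.1. Barcodes under 500 genes or over 10% mitochondrial UMIs were dropped. No doublet caller was run; mixed cells were limited by the 3 excluding genes. Counts were summed over cells and divided by total UMIs. Ratios have exact conditional binomial intervals, levels exact Poisson and shares Clopper-Pearson intervals (95%, counting error only). Counts of 0 used a floor of 3 UMIs per sum. Selected cells were clustered alone with scanpy 1.11.5 and leidenalg 0.10.2 (1500 variable genes, 15 components, 10 neighbours, resolution 0.8, no integration). The ratio script was checked on simulated counts. Clec7a and Mx1 were not matched. Sequences are from RefSeq promoter tables; C1qa is named only.

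Named genes were the 8 rule genes, the 25 with the largest ratio over other cells, the 10 largest each way between libraries, 8 per cluster and up to 4 per list and measure, ranked by the interval end nearest 1; rankings left out unnamed models and genes of ribosomes, mitochondria, haemoglobin, immunoglobulins and T cell receptors. Other genes named, such as Neat1 and Kcnq1ot1, are list members or were picked after values were seen. The selected cells and the gene lists were chosen with earlier results of these data known. One item is not reported here. Alternatives on selection, depth, scaling, weighting and clustering are given in the closing section.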

Additional observations from a re-analysis of the deposited data

Results flagged for a closer look

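Some barcodes outside the comparisons met the gene rule. Among barcodes with under 500 genes, 20 in the control and 24 in the DR library met the gene rule and had none of Ncr1, Cd79a and Cd3e. They had medians of 682.5 and 712.5 UMIs. Of genes the rule did not use, Hmox1 was detected in 11 of the 20 and 22 of the 24, at 3413 and 5070 CPM. Malat1 stood at 401 and 1340 CPM in them.

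In the kept barcodes, 3 control and 11 DR barcodes had 5 or more of the 8 genes together with an excluding UMI. They had a median of 12750.5 UMIs, and Hmox1 was detected in 2 and 5 of them.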

How the results depend on the processing

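No paired analysis was possible because there was 1 library per group with no replicate numbers. With at least 1000 genes per barcode, 0 control (0%) and 43 DR (0.720%) cells were selected, so no library comparison could be made; with no minimum of genes there were 39 control cells (0.688%) and a DR share of 1.47%, and 7 lists had a median at least 2-fold higher against 4. That number of lists was 1 with at least 4 of 8 genes, 2 without Alox5ap and 2 at a minimum of 10 UMIs, where 6 were lower against 2. Genes higher in the DR library numbered 75 without the cells holding 3 or more NK, B or T genes; genes lower numbered 240 and 54 at minimums of 10 and 100 UMIs. Weighting clusters 1 and 2 equally left 21 genes higher, 23 lower, 2 lists higher and 0 lower, and turned the sign for the complement list (0.062), Plac8 (-0.27), Fcna (0.51), C1qa (1.03) and Slc40a1 (0.45). Against other kept cells, 237 genes were lower with cells weighted equally, 1196 were higher and 479 lower at 10 UMIs, and 170 and 17 at 100 UMIs. Within cluster 1, 18 genes were lower when C1q barcodes under 500 genes were added. Ratios of genes with 0 control UMIs could not be given with cells or clusters weighted equally, nor for S100a8 without cluster 5, where both libraries were under the floor. The minimum of UMIs sets how many genes are tested; other causes were not tested. The equal weighting of clusters, the removal of the gene minimum, the removal of cluster 5 and all alternatives within cluster 1 were chosen after seeing the data. Weighting clusters with at least 10 cells in each library was not run, since the largest had 9 control cells. The control sum of 23211 UMIs limits the pooled comparison: a gene under 129 CPM there cannot be told from 0.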
